A study of Mus musculus with 7 samples.

Results

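The Hox genes are the 39 protein-coding genes whose symbols are Hoxa, Hoxb, Hoxc or Hoxd followed by a number, out of 21627 protein-coding genes on chromosomes 1 to 19 and X. They were chosen by symbol alone, without any measured value. Chromatin was compared in mouse leukaemia cells of BALB/c background, made from bone marrow by retroviral delivery of mutant CSF3R, the granulocyte colony-stimulating factor receptor, and mutant CEBPA, a granulocytic transcription factor. One group was cultured for 48 h with GSK-LSD1 at 4 nM, an inhibitor of the histone H3 lysine 4 demethylase LSD1, and the other for 48 h with the solvent DMSO; cells of both groups carried both mutant genes, and the labels name neither the mutations nor separate cultures. Each group gave 1 library each for H3K4me1 (typical of enhancers), H3K4me3 (typical of promoters) and H3K27Ac (typical of active elements), beside 1 input library for the series. The authors divided the genome into 200 bp bins, gave each bin 1 of 6 states named E1 to E6, and deposited 1 such map per treatment. A single map per treatment has no replicate error, so the treatments could not be tested against each other and p-values are left out. Sequencing depth is unknown. A state is a category, so amounts are the area a state covers. The 95% Wilson intervals cover counting error only, over bins or, for shares of genes, over genes.

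The labels do not link the states to marks, so each state is described by where it lay. E3 covered 70.1% of the genome in GSK-LSD1 and 73.3% in DMSO and is called background, and every other state is called marked. E5 and E6 are called transcription start site (TSS) type because their share at the ends of protein-coding genes was 10.1 and 7.85 times their genome share in GSK-LSD1, and 13.3 and 9.45 times in DMSO. E2 lay in long blocks in the clusters, and E4 beside nearly every TSS-type region there. E1 covered 4.72% of the genome in GSK-LSD1 and 0.483% in DMSO, and E6 covered 2.08% in GSK-LSD1 and 0.217% in DMSO. Among marker genes of cell types, a TSS-type state lay at a gene end in 5 of 7 myeloid genes in GSK-LSD1 (Spi1, Kit, Cebpa, Itgam and Mpo). In DMSO it did so in 3 of 7 (Spi1, Kit and Cebpa). Elane and Csf3r had none in either segmentation. It also lay at Ebf1 (1 of 3 B cell genes), Klf1 (1 of 2 erythroid genes) and Pdgfrb (1 of 3 stromal and endothelial genes) in both segmentations, and at none of 3 T cell genes. Of all 21627 protein-coding genes, 11564 had it in both segmentations at the start, or at either gene end where no start was listed. A further 640 had it there only in GSK-LSD1 and 201 only in DMSO. The markers were scored at either gene end also where a start was listed, so the 2 sets of counts are built unlike. The marker counts are small and were not tested against the counts over all genes, so they do not establish the cell type.

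Hox genes encode homeodomain transcription factors that set position along the body axis. They lie in clusters in which the order of genes, numbered as paralogues from 1 to 13, follows the order in which they are used from head to tail. In blood, Hoxa9 and Hoxa10 are expressed in stem cells and early progenitors and are switched off as myeloid cells mature, and Hoxa9 together with its cofactor Meis1 drives leukaemia in mice. Hox clusters are known as domains controlled by opposing Trithorax-type and Polycomb complexes, which place H3K4 and H3K27 methylation; H3K27 methylation was not measured here.

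The members lie in 4 clusters. The Hoxa cluster has 11 genes on chromosome 6 (52155367 to 52260880, GRCm38, minus strand), the Hoxb cluster 10 genes on chromosome 11 (96194316 to 96368254, plus strand), the Hoxc cluster 9 genes on chromosome 15 (102921131 to 103036856, plus strand) and the Hoxd cluster 9 genes on chromosome 2 (74668225 to 74765142, plus strand). The promoter table used here (RefSeq, build GRCm38.p6) held 22 of the 39 genes. The 250 bases before the annotated start are shown for Hoxa9, for both starts of Hoxa10, and for Hoxa7 and Hoxa13. E5 covered a larger area of these 4 genes with 1 kb on each side in GSK-LSD1 than in DMSO. The same held for other genes with a listed start, among them Hoxa3 and Hoxb4, whose windows are not shown. Capitals mark matches, on either strand, to TATAAA (the TATA box), to CCAAT (the CCAAT box), to GGGCGG (the GC box), to TTGCNNAA (C/EBP type), to TGATNNAT (PBX-HOX type) or to TGACAG (MEIS type). No match was found in the Hoxa7 window. All windows lie on the minus strand of chromosome 6 and read 5′ to 3′.
Hoxa9, chr6:52227371-52227620: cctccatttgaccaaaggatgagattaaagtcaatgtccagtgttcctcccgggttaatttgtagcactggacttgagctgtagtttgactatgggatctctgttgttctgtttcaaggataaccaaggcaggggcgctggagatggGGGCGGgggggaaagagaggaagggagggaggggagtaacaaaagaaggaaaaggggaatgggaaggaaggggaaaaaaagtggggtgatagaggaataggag
Hoxa10, outer start, chr6:52240855-52241104: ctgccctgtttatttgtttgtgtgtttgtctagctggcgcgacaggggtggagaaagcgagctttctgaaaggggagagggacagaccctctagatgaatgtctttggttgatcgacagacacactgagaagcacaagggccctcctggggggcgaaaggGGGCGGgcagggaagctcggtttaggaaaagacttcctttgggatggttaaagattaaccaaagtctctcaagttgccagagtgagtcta
Hoxa10, inner start, chr6:52234940-52235189: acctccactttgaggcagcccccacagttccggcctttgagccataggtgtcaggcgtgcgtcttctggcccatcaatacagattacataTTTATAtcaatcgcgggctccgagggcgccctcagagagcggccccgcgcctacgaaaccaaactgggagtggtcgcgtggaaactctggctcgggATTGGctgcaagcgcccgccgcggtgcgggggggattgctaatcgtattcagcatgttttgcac
Hoxa7, chr6:52218574-52218823: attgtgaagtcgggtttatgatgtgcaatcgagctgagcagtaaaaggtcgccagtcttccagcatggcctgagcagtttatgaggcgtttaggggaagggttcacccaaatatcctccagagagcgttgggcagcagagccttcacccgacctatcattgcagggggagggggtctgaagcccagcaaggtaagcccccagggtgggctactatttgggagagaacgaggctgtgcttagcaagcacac
Hoxa13, chr6:52260881-52261130: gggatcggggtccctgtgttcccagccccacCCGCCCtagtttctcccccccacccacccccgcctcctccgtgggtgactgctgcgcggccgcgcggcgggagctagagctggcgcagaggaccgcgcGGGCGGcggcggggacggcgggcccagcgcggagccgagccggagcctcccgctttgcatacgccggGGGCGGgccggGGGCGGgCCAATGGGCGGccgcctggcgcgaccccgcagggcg

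These windows differ in composition. The Hoxa13 window held 35 CG dinucleotides and 80.0% G or C, and the Hoxa9 window held 3 and 49.6%. The median was 12.5 CG dinucleotides over the 24 Hox windows and 10 over all 21044 windows of protein-coding genes. GGGCGG was present in 10 of 24 Hox windows and in 43.0% of all windows. CCAAT was present in 14 of 24 and in 35.6%, TATAAA in 4 of 24 and in 11.7%, and TGATNNAT in 4 of 24 and in 6.62%. TTGCNNAA was present in 2 of 24 and in 9.18%, and TGACAG in 2 of 24 and in 15.0%. A match is a description of letters and not a binding site. Before Hoxa13 the CCAAT match stood directly before 1 of 5 GGGCGG matches.

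Inside the 4 clusters, TSS-type chromatin covered a larger area and the broad state E2 a smaller one in GSK-LSD1 than in DMSO. TSS-type states covered 50.2 of 493 kb in GSK-LSD1 (10.2%; 95% Wilson interval 9.05 to 11.4) and 29.0 kb in DMSO (5.88%; 5.02 to 6.88), a ratio of 1.73. Over chromosomes 1 to 19 and X the ratio was 1.65. E2 covered 82.4 kb in GSK-LSD1 and 172 kb in DMSO, a ratio of 0.479, against 0.908 over these chromosomes. Marked area as a whole was smaller in the clusters, at 213.4 kb in GSK-LSD1 (43.3%; 41.3 to 45.3) and 277.6 kb in DMSO (56.3%; 54.3 to 58.3), while over chromosomes 1 to 19 and X it was larger in GSK-LSD1, at 29.9%, than in DMSO, at 26.7%. That direction rests on E2: with E2 counted as background, the clusters held 131 kb of marked chromatin in GSK-LSD1 and 105.6 kb in DMSO.

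**Figure D1:**
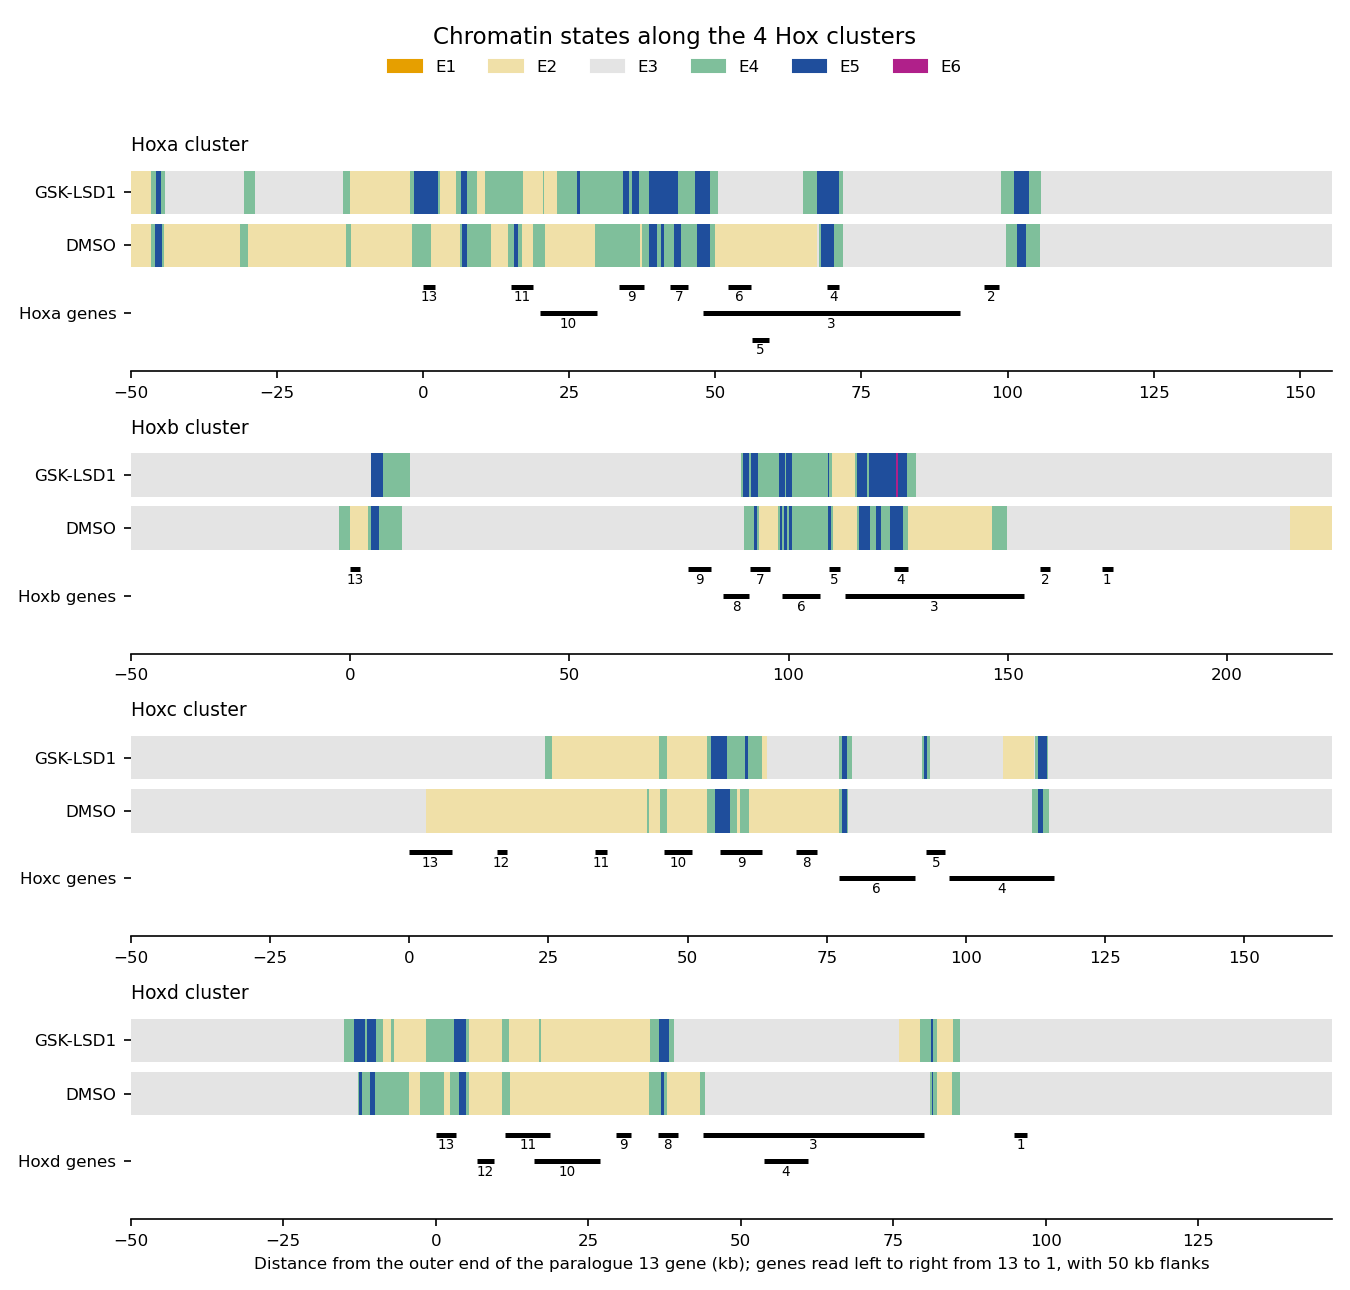
Chromatin states along the 4 Hox clusters, with the GSK-LSD1 segmentation above the DMSO segmentation and the Hox genes reported singly as black bars under them. The x axis is the distance in kb from the outer end of the paralogue 13 gene and differs in scale between panels; E5 (blue) is wider around Hoxa13, Hoxa9, Hoxa7 and Hoxb4 in GSK-LSD1, E2 (pale yellow) is shorter in Hoxa, Hoxb and Hoxc, and E6 (purple) is seen at Hoxb4 alone.

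The clusters differed among themselves. Hoxa and Hoxb held most of the TSS-type area: 20.2 kb in GSK-LSD1 and 10.6 kb in DMSO in Hoxa, and 19.4 kb in GSK-LSD1 and 11.8 kb in DMSO in Hoxb. Hoxc held 6.6 kb in GSK-LSD1 and 4.8 kb in DMSO, and Hoxd held 4.0 kb in GSK-LSD1 and 1.8 kb in DMSO. All 4 clusters thus had more in GSK-LSD1, with ratios between 1.38 (Hoxc) and 2.22 (Hoxd). E2 was smaller in GSK-LSD1 in Hoxa (9.8 kb, against 36.4 kb in DMSO), Hoxb (5.2 kb, against 33.0 kb in DMSO) and Hoxc (33.0 kb, against 65.6 kb in DMSO). In Hoxd it was nearly the same, at 34.4 kb in GSK-LSD1 and 37.0 kb in DMSO.

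**Figure D2:**
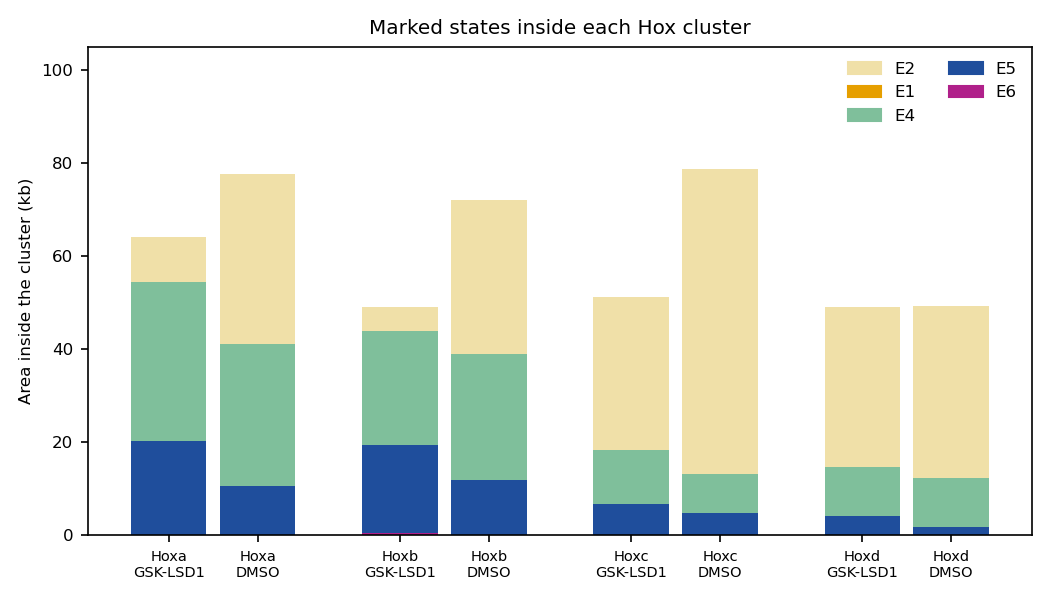
Area in kb of each marked state inside each Hox cluster, with GSK-LSD1 left of DMSO for each cluster and states stacked. E5 is larger in GSK-LSD1 in all 4 clusters, E2 is smaller in Hoxa, Hoxb and Hoxc, and E1 has no area in any bar.

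The states with the largest genome-wide ratios of GSK-LSD1 to DMSO, E1 (9.78) and E6 (9.58), were almost absent from the Hox clusters. E6 covered 0.4 kb of the 493 kb in GSK-LSD1 and 0 kb in DMSO, and E1 covered 0 kb in both. A count of 0 among 2465 bins allows a share of up to 0.122%, by 3 counts of the total. Neighbouring bins are not independent, so this limit is too low. Over chromosomes 1 to 19 and X, E1 and E6 together covered 6.81% in GSK-LSD1 and 0.70% in DMSO. E6 made up 0.797% of the TSS-type bins of the clusters in GSK-LSD1 (95% Wilson interval 0.219 to 2.86), against 57.6% over these chromosomes. The lack of E6 was shared with other regions. Tiled windows of 100 kb that held at least 1.8 kb of E5 in DMSO, the amount in the Hoxd cluster, numbered 7466. Of these, 22.1% had no E6 in GSK-LSD1 and 16.5% had neither E1 nor E6. This window size and limit were set after the cluster values had been seen. Hoxa held 10.6 kb and Hoxb 11.8 kb of E5 in DMSO, and windows with that much E5 were not counted apart.

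Single bins were then followed between the segmentations. Of the 145 bins that were E5 in DMSO in the clusters, 87.6% were still E5 in GSK-LSD1 (95% Wilson interval 81.2 to 92.0), 11% were E4 and 1.38% were E6 (0.379 to 4.89). Over chromosomes 1 to 19 and X, 44.4% of E5 bins were still E5 and 51.3% were E6. Of the 383 E4 bins, 58.7% were still E4 (53.8 to 63.6), against 26.8% over these chromosomes, and 27.9% were TSS-type (23.7 to 32.6), against 38.8%. None was E1 or E6, which allows a share of up to 0.783%, whereas 21.6% of E4 bins over these chromosomes were E1. Of the 860 E2 bins, 43.5% were background in GSK-LSD1 (40.2 to 46.8), against 15.4% over these chromosomes, and none was E1 (up to 0.349% allowed), against 17.0%. A further 16.4% of the E2 bins were E4 or TSS-type, against 6.69%. Whether a state carries the same marks in both maps is unknown. Neighbouring bins are not independent, so these intervals are too narrow and the allowed shares too low.

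**Figure D3:**
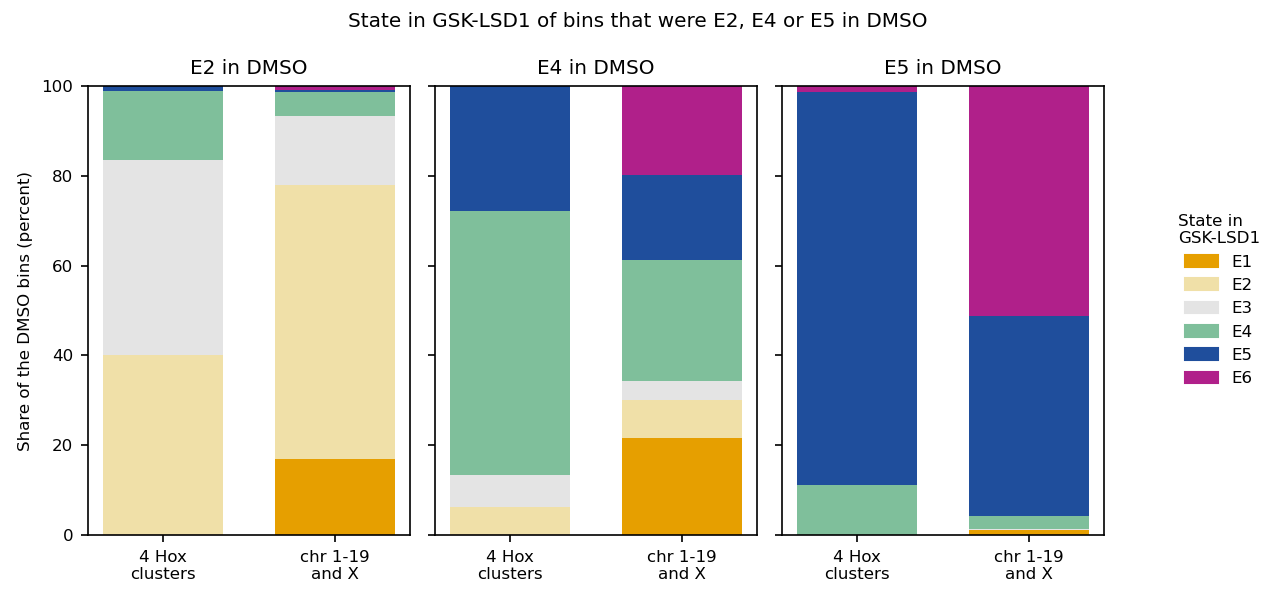
State in GSK-LSD1 of the 200 bp bins that were E2, E4 or E5 in DMSO, as percent of those bins, for the 4 Hox clusters (left bars) and for chromosomes 1 to 19 and X (right bars). In the clusters E5 stayed E5 in 87.6% of bins and E2 became E3 in 43.5%, and the E1 and E6 parts seen over the chromosomes are missing or, for E5, at 1.38%.

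At Hoxa9, TSS-type chromatin covered 2.4 kb of the gene and the 1 kb on each side in GSK-LSD1 and 0.2 kb in DMSO. The further area in GSK-LSD1 lay inside the gene (52223097 to 52227370) as 2 blocks of E5, at 52224001 to 52225200 and at 52225601 to 52226600, where DMSO had E4. The bin of the annotated start was E4 in both segmentations. All 6.4 kb of the window was marked in both, with 4.0 kb of E4 in GSK-LSD1 and 5.8 kb in DMSO. Hoxa9 thus differed in state and not in the amount of marked chromatin.

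At Hoxa10 (52231197 to 52240854) the difference was smaller. E5 covered 0.6 kb of the window in GSK-LSD1, at 52234001 to 52234600, and 0 kb in DMSO. The counting interval was -0.223 to 1.64 kb for this difference and 0.967 to 3.32 kb for that at Hoxa9. Neighbouring bins are not independent, so both intervals are too narrow, and neither is a test of treatment. The E4 area was 7.6 kb in GSK-LSD1 and 3.4 kb in DMSO, and the E2 area was 3.8 kb in GSK-LSD1 and 8.6 kb in DMSO. The 2 annotated starts went opposite ways: the inner start at 52234939 was E4 in GSK-LSD1 and E2 in DMSO, and the outer start at 52240854 was E2 in GSK-LSD1 and E4 in DMSO. Neither start had a TSS-type state in either segmentation.

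The other members with a larger TSS-type area in the Hoxa cluster lay on both sides of this pair. Hoxa13, the outermost gene, which acts in limb and genital development, had the largest difference in its cluster, with 3.6 of 4.2 kb TSS-type in GSK-LSD1 and 0 kb in DMSO. Its start bin was E5 in GSK-LSD1 and E4 in DMSO, in an E5 block of 4.0 kb at 52258401 to 52262400. Hoxa7, which like Hoxa9 is expressed in leukaemias with MLL fusions, had 2.4 kb in GSK-LSD1 and 1.2 kb in DMSO, and its start was E5 in GSK-LSD1 and E4 in DMSO. From within Hoxa7 towards Hoxa9, GSK-LSD1 had 1 E5 block of 5.0 kb at 52217201 to 52222200. Of these 5.0 kb, 2.8 kb were TSS-type in DMSO, in 3 separate blocks, the first of which began at 52216801, outside the GSK-LSD1 block.

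Hoxa3, which acts in thymus and parathyroid development, had E5 at its start in both segmentations, with 6.0 kb TSS-type in GSK-LSD1 and 4.4 kb in DMSO. Its annotated span runs over Hoxa4, Hoxa5 and Hoxa6, so its window is not independent of theirs. Hoxa4 had 3.0 kb in GSK-LSD1 and 2.2 kb in DMSO. Hoxa11 went the other way, with 0 kb in GSK-LSD1 and 0.8 kb in DMSO.

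Hoxa5 and Hoxa6 had no TSS-type state in either segmentation. Their windows of 5.0 and 6.0 kb were background throughout in GSK-LSD1 and E2 throughout in DMSO. They lay in an E2 block of 17.6 kb (52193401 to 52211000) in DMSO, of which 14.6 kb was background in GSK-LSD1. Hoxa2 had 0.6 kb of E4 in GSK-LSD1 and was background throughout in DMSO.

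In the Hoxb cluster TSS-type area differed most at Hoxb3, followed by Hoxb8 and Hoxb7. Inside the span of Hoxb3, Hoxb4, known for expanding blood stem cells when overexpressed, had 4.2 of 5.6 kb TSS-type in GSK-LSD1 and 3.0 kb in DMSO, with E5 at its start in both. It held the only E6 of all 4 clusters, 0.4 kb at 96318801 to 96319200 in GSK-LSD1, in bins that were E5 in DMSO. From 96312601 to 96321400 GSK-LSD1 had 1 TSS-type region of 8.8 kb, the longest of the 25 TSS-type regions in the clusters. DMSO had 2 E5 blocks of 1.2 and 3.0 kb fully inside it. Hoxb3, whose annotated span encloses Hoxb4, had 11 kb in GSK-LSD1 and 6.6 kb in DMSO, while its marked area was 17.4 kb in GSK-LSD1 and 38.2 kb in DMSO. Most of that difference lay in an E2 block of 19 kb in DMSO (96321601 to 96340600), where GSK-LSD1 had E4 only up to 96323400 and background beyond.

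Hoxb7, Hoxb8 and Hoxb6 also had more TSS-type area in GSK-LSD1. Hoxb8, which blocks myeloid maturation when expressed by force, had 1.8 kb in GSK-LSD1 and 0 kb in DMSO, although its annotated start was background in both. Hoxb7 had 2.2 kb in GSK-LSD1 and 0.8 kb in DMSO. Hoxb6 had 2.6 kb in GSK-LSD1 and 2.0 kb in DMSO, and one of its ends was E5 in GSK-LSD1 and E4 in DMSO. Hoxb5 had less, at 0.2 kb in GSK-LSD1 and 0.8 kb in DMSO, and kept E5 at an end.

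Hoxb1, Hoxb2 and Hoxb9 were background over the whole window in both segmentations. Hoxb13, which lies apart from the rest of its cluster and acts in the prostate, was background throughout in GSK-LSD1, while its 4.6 kb were E2 and E4 in DMSO. The nearest TSS-type block, 2391 bp beyond the gene in GSK-LSD1, covered 2.8 kb in GSK-LSD1 and 1.6 kb in DMSO and lay in the non-coding gene Gm30134.

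In the Hoxc cluster TSS-type area differed at 2 of 9 genes. Hoxc5 had 0.6 kb of E5 in GSK-LSD1, at 103013601 to 103014200 over one gene end, where DMSO had background. Hoxc4 had 1.6 kb in GSK-LSD1 and 1.0 kb in DMSO, with E5 at its start in both, and its marked area was 7.8 kb in GSK-LSD1 and 3.0 kb in DMSO, including an E2 block of 5.6 kb in GSK-LSD1. Hoxc9 kept 2.8 kb in both, the largest TSS-type area of this cluster in DMSO, but at shifted positions. Its main block ran from 102975401, outside the window, to 102978200 in GSK-LSD1 and from 102976001 to 102978800 in DMSO, and GSK-LSD1 had a second block of 0.6 kb at 102981401 to 102982000. Hoxc6 kept 1.0 kb in both.

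The outer Hoxc genes had no TSS-type state. Hoxc13, a hair follicle gene, had 0 kb of marked area in GSK-LSD1 and 5.8 kb in DMSO, and Hoxc12 had 0 kb in GSK-LSD1 and 4.0 kb in DMSO. In GSK-LSD1 E2 began only at 102946801, whereas in DMSO an E2 block of 39.6 kb (102924201 to 102963800) reached into both genes. Hoxc8 likewise had 0 kb in GSK-LSD1 and 6.0 kb of E2 in DMSO. Hoxc10 and Hoxc11 stayed fully marked in both, mostly as E2.

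In the Hoxd cluster marked area was nearly equal, at 49 kb in GSK-LSD1 and 49.2 kb in DMSO. Hoxd8 had 1.6 kb of E5 in GSK-LSD1 and 0.4 kb in DMSO, and Hoxd13, a limb gene, had 1.6 kb in GSK-LSD1 and 0.8 kb in DMSO, the largest TSS-type area of this cluster in DMSO; the starts of both were E4 in both segmentations. Hoxd9, Hoxd10, Hoxd11 and Hoxd12 lay in E2 with some E4 and were fully marked in both segmentations. Of the DMSO E2 bins of this cluster, 82.2% were E2 in GSK-LSD1 too, against 15.2% in Hoxb, 18.1% in Hoxa and 41.2% in Hoxc. Hoxd1 and Hoxd4 were background in both. At Hoxd3 marked area was 5.2 kb in GSK-LSD1 and 1.8 kb in DMSO, and its start was background in GSK-LSD1 and E4 in DMSO.

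Over the 39 genes, 16 had more TSS-type area in GSK-LSD1 by at least 1 bin (41.0%; 95% Wilson interval 27.1 to 56.6), against 55.0% of all protein-coding genes. Another 2 had less, Hoxa11 and Hoxb5 (5.13%), against 5.63%, and 21 were equal, of which 19 had none in either segmentation. The median difference was 0 kb in the Hox genes and 0.4 kb in all protein-coding genes. Among the 16 genes with E5 in their window in DMSO, 12 had more TSS-type area (75.0%), against 84.0% of 13504 genes of that kind. A difference of at least 1 kb was found at 10 of the 39, against 36.6% of all protein-coding genes. No difference between these shares was tested. The interval for the 39 genes includes the share of all genes. It counts the genes as independent although windows of neighbouring Hox genes overlap, so it is too narrow and is not a test. The state differed more: 2 of the 16 genes with E5 in DMSO, Hoxb3 and Hoxb4, had E6 in GSK-LSD1 (12.5%), against 67.4%, and both through the same 0.4 kb. The 67.4% also counts genes that already had E6 in DMSO, whereas no Hox gene had any E6 in DMSO. Marked area was smaller at 11 genes (28.2%, against 14.0% of all) and larger at 6 (15.4%, against 20.3%). The 4 largest of these differences, GSK-LSD1 minus DMSO, were -20.8 kb at Hoxb3, -14.4 kb at Hoxa3, and -6.0 kb at Hoxa6 and at Hoxc8. Hoxa6 lies inside the Hoxa3 span, so the same E2 block counts for both, and Hoxc12 and Hoxc13 also share 1 E2 block. Without the genes that have another Hox gene inside, marked area was smaller at 9 of 36 genes (25.0%) and larger at 5 (13.9%).

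At annotated starts, or at either gene end for the 17 genes without a listed start, a TSS-type state was present only in GSK-LSD1 at 4 genes, Hoxa7, Hoxa13, Hoxb6 and Hoxc5 (10.3%, against 2.96% of all protein-coding genes). The looser rule of either gene end applied to 17 of 39 Hox genes but to 4354 of all 21627 genes, so these shares are built unlike. With listed starts alone the count was 2 of 22 Hox genes (9.09%), Hoxa7 and Hoxa13, against 2.58% of 17273 genes. With gene ends alone it was 2 of 17 (11.8%), Hoxb6 and Hoxc5, against 4.48% of 4354. Counts of 2 genes are too small to read a difference from. It was present only in DMSO at 0 genes, against 0.929% of all. It was present in both at 6, Hoxa3, Hoxa4, Hoxb4, Hoxb5, Hoxc4 and Hoxc9, and in neither at 29, Hoxa9 and Hoxa10 among them. These calls rest on single bins of 200 bp. With any bin within 1 kb of the start, 4 genes had it only in GSK-LSD1 and 1 only in DMSO. Hoxa9 and the inner start of Hoxa10 had E5 within 1 kb in GSK-LSD1 and not in DMSO.

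**Figure D4:**
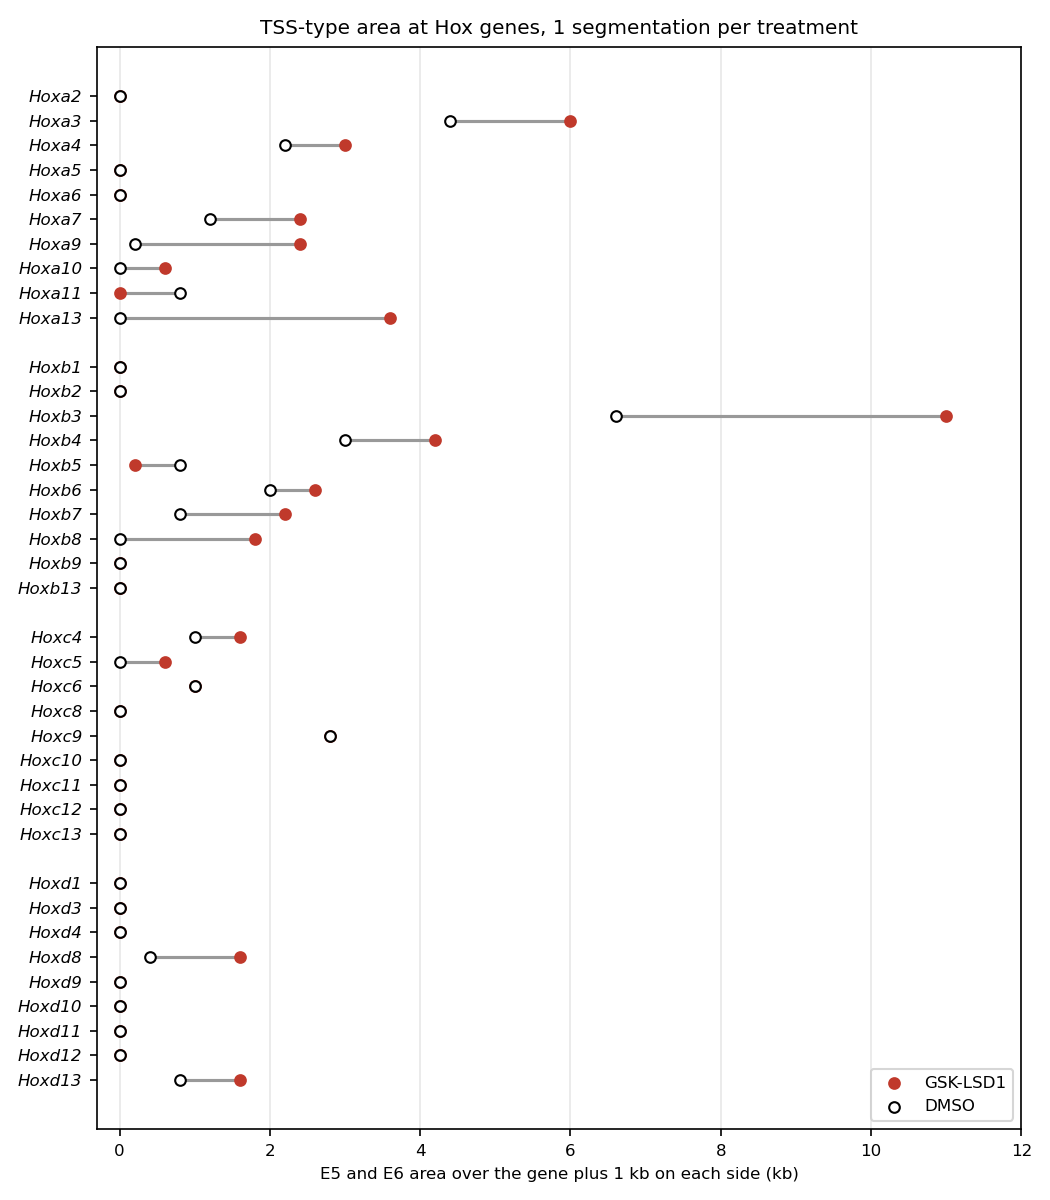
TSS-type area (E5 and E6) in kb over the Hox genes reported singly plus 1 kb on each side, as filled points for GSK-LSD1 and open points for DMSO, joined by a line; a lone open point covers a filled one at the same value. The longest lines belong to Hoxb3, Hoxa13 and Hoxa9, Hoxa11 and Hoxb5 run the other way, and 19 genes sit at 0 in both.

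By position in the cluster, 6 of 12 genes of paralogues 1 to 4 had more TSS-type area in GSK-LSD1. So did 6 of 11 of paralogues 5 to 8 and 4 of 16 of paralogues 9 to 13. None of these groups had a larger share than the 55.0% of all protein-coding genes. Of paralogues 9 to 13, Hoxa9, Hoxa10, Hoxa13 and Hoxd13 had more, while none of the Hoxb or Hoxc genes of that group did. Among the 4 genes of paralogue 9, Hoxa9 had 2.4 kb in GSK-LSD1 and 0.2 kb in DMSO, Hoxc9 had 2.8 kb in both, and Hoxb9 and Hoxd9 had 0 kb in both. Among the 3 of paralogue 10, Hoxa10 had 0.6 kb in GSK-LSD1 and 0 kb in DMSO, and Hoxc10 and Hoxd10 had 0 kb in both. These groups are small, their windows overlap, and no difference between them or from all genes was tested.

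Beyond the clusters, the 50 kb flanks held 5.4 of 400 kb of TSS-type chromatin in GSK-LSD1 (1.35%) and 2.6 kb in DMSO (0.650%), and no E1 or E6 in either. All of it lay beyond the paralogue 13 genes of Hoxa and Hoxd. In the Hoxd flank lies Evx2, a homeobox gene controlled together with Hoxd13, with 3.2 kb of E5 in GSK-LSD1 and 1.4 kb in DMSO. Ttll6, the only other protein-coding gene in a flank, was background in both. The Hoxa flank beyond Hoxa13 held 13.8 kb of E2 and 28.4 kb of background in GSK-LSD1, and 43.8 kb of E2 and no background in DMSO. The Hoxb flank beyond Hoxb1 held no E2 in GSK-LSD1 and 9.8 kb in DMSO. The Hoxd flank beyond Hoxd13 went the other way, with 6.4 kb of E2 in GSK-LSD1 and 1.8 kb in DMSO. Both Hoxc flanks were background in both segmentations.

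Hox cofactors and regulators, a list of 26 genes, were set beside the clusters because several of them bind DNA with Hox proteins or write the marks at Hox genes. Of the 26, 20 had more TSS-type area in GSK-LSD1 (76.9%, against 55.0% of all protein-coding genes), 1 had less and 5 were equal, with a median difference of 1.5 kb against 0.4 kb. Among the 23 with E5 in DMSO the share with more was 87.0%, near the 84.0% of all genes of that kind. Meis1, the leukaemia cofactor of Hoxa9, had 8.0 kb in GSK-LSD1, of which 2.2 kb was E6, and 4.4 kb in DMSO with no E6. The largest differences lay at Aff1, a subunit of elongation complexes, with 39.8 kb in GSK-LSD1 and 16.8 kb in DMSO, and at the Polycomb subunit gene Eed, with 10 kb in GSK-LSD1 and 4.6 kb in DMSO. Next came Aff4, a scaffold of the super elongation complex, with 12.8 kb in GSK-LSD1 and 8.4 kb in DMSO, and Dot1l, the H3K79 methyltransferase gene, with 11.4 kb in GSK-LSD1 and 7.0 kb in DMSO.

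Among the 23 list genes with E5 in DMSO, 17 had E6 in GSK-LSD1 (73.9%, against 67.4% of all such genes and 2 of 16 Hox genes). Some of the 17 already had E6 in DMSO, such as Aff1 with 2.0 kb and Aff4 with 1.8 kb, so these are not shares of genes that gained E6. List genes without E6 included Meis2, Meis3, Pbx3 and Pbx4, of the homeodomain families that pair with Hox proteins, and Mllt3, a subunit of the super elongation complex. Of the same homeodomain families, Meis1 and Pbx2 did have E6 in GSK-LSD1, at 2.2 and 2.8 kb. Pbx2 already had 1.8 kb of E6 in DMSO. Pbx3, a partner of Hoxa9 in leukaemia, had 8.0 kb in GSK-LSD1 and 5.6 kb in DMSO, all of it E5. Meis2 had 6.8 kb in GSK-LSD1 and 7.6 kb in DMSO, also all E5. The Cdx genes, upstream activators of Hox genes, had 0 kb in both.

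The clusters also hold 31 transcripts of other kinds, among them microRNAs that target Hox messenger RNAs. The mature sequences of the miR-10 and miR-196 families, from RefSeq, are shown with the seed, bases 2 to 8, in capitals, since each family has copies in different clusters whose chromatin can be compared.
mmu-miR-10a-5p: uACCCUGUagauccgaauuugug
mmu-miR-10b-5p: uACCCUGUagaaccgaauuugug
mmu-miR-196a-5p: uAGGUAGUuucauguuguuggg
mmu-miR-196b-5p: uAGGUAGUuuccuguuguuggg
Within each family the seed is the same and the mature sequences differ at 1 base. Mir10a, before Hoxb4 (chr11:96317186-96317208, plus strand, GRCm38.p6), lay in E5 in GSK-LSD1 and in E4 in DMSO. Its counterpart Mir10b, inside the Hoxd4 span (chr2:74726074-74726096, plus strand), lay in background in both. Mir196b, between Hoxa9 and Hoxa10 (chr6:52230129-52230150, minus strand), lay in E4 in both. Mir196a-1 in Hoxb lay in background and Mir196a-2 in Hoxc in E2 in both. The long non-coding RNA gene Hotair, in the Hoxc cluster, had 0 kb of TSS-type area in both.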

How the data were processed

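Chromatin immunoprecipitation and sequencing covered 3 histone marks and 1 input library. The submitters' processing notes name Bowtie as a tool and mm10 (GRCm38) as the build. For the segmentation tool, its thresholds, the use of the input and the Bowtie version, the sources used here say nothing. The authors deposited 1 segmentation per treatment, listed per the labels under the libraries of all 3 marks, with 162731 segments in GSK-LSD1 and 136061 in DMSO. State calls depend on read depth and on how clean each precipitation was, so areas can differ between treatments for that reason too. Depth and signal were not analysed here.

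Segments were expanded to 200 bp bins over chromosomes 1 to 19 and X (13168874 bins). A cluster ran from the lowest start to the highest end of its Hox genes, and a gene window was the gene plus 1 kb on each side; windows of neighbouring Hox genes can overlap. Gene positions, starts and sequences came from RefSeq tables of GRCm38.p6, which is C57BL/6J sequence, while the cells are BALB/c. Starts were taken from the promoter table (22 of 39 Hox genes), otherwise from either gene end. Windows were computed with Python 3.11.15, numpy 2.4.6 and pandas 2.3.3, and the window calculation was tested on simulated data. No measured value entered the symbol rule for the members, but the members, lists, state roles and tests were chosen with earlier results of these data known. Genes described singly were those with a changed start, the 3 largest TSS-type differences per cluster, the 4 largest marked differences, and the largest DMSO TSS-type area per cluster; of the lists, the 4 cofactors with the largest differences and every protein-coding gene in a flank. Other genes were added with their values known, to account for the members. Single values of 1 Hox gene and 1 cofactor are not reported here, though both are in the counts. No p-value was computed, since bins and genes are not replicates.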

Additional observations from a re-analysis of the deposited data

How the results depend on the processing

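Differences are GSK-LSD1 minus DMSO. The lower marked share of the 4 clusters (-13.0 percentage points) was -9.71 without Hoxc and -16.2 without Hoxd, and turned to 5.15 with E2 as background too. The higher TSS-type share (4.30 points) was 2.69 for clusters with their 50 kb flanks, and 4.22 with E5 alone as TSS-type, so unlike the genome total it did not rest on E6. In the flanks the TSS-type difference (0.70 points) was 2.0 with 20 kb flanks and 0.333 without Hoxd. The count of 16 Hox genes with more TSS-type area was 10 when a difference of at least 1 kb was asked (36.6% of all protein-coding genes pass that limit). It was 14 when genes with another Hox gene inside were left out, an alternative added after the data were seen. With wider windows it rose, to 19 with 2.5 kb and to 23 with 5 kb on each side of the gene. The Hoxa9 difference (2.2 kb) was 4.4 kb with 5 kb on each side of the gene. The Hoxa10 difference (0.6 kb) was 0.4 kb with 5 kb on each side, from 1.2 kb in GSK-LSD1 and 0.8 kb in DMSO. Of all 47 alternative values, 40 differed from theirs by less than the counting interval or, for counts, by less than 1.5 times. The values 4.22, 0.333, 14, 19 and 23, and 0.4 kb at Hoxa10, are among these. No paired analysis was possible because each treatment has 1 segmentation, and the depth that limits the calls is unknown.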
